A study of Mus musculus with 4 samples.

Results

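The mitosis genes were 60 genes of cell division, taken by name from the gene lists of 4 single-cell RNA-seq libraries of mouse thymocytes, and all 60 were found among the 32285 genes of the files. They were chosen by function, although earlier results of these data were known when the list was set. Mitosis is driven by Cdk1, a kinase that becomes active when it binds a B-type or A-type cyclin and is held back until Cdc25 phosphatases remove its inhibitory marks. Condensins and topoisomerase II compact and untangle the chromosomes, the spindle attaches to them at kinetochores, and the anaphase-promoting complex with Cdc20 then destroys securin and the cyclins so that the sister chromatids part. In the thymus, cells divide mainly after β-selection, as they pass from the CD4- CD8- double negative (DN) stage to the CD4+ CD8+ double positive (DP) blast stage, and most DP cells then stop dividing.

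The study compared 2 genotypes, with 2 libraries of each. Control mice carried floxed Tox4 alleles (Tox4 F/F) with no Cre, and conditional knockout (cKO) mice carried the same alleles and an Lck-Cre transgene. Lck-Cre is driven by the proximal Lck promoter and acts in T-lineage cells from the DN stage on, so the B cells and phagocytes of the same thymi were not its target, and the earliest DN cells of cKO mice may still have held the gene. The labels gave no age, the methods put all mice at several weeks of age, and Cre alone had no control group. The libraries are called control 1, control 2, cKO 1 and cKO 2 by the replicate numbers in their labels. The methods describe separate mice, analysed as pairs of control and cKO, with littermates of matched sex. They do not say whether the replicate number marks a pair, so the tests were run without it and, as an alternative, with the number as a block.

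The files held 57354 cells, of which 33414 passed the filters (5648, 8441, 7298 and 12027 in control 1, control 2, cKO 1 and cKO 2). Deposited UMIs, the counted RNA molecules, numbered 42716798 to 62007453 per library. Cells with over 10% mitochondrial UMIs made up 48.3% of control 1 and 46.1% of cKO 1, against 20.6% of control 2 and 23.1% of cKO 2, so this share followed the replicate number and not the genotype. Any pair of libraries shared 36 to 70 cell barcodes. Tox4 itself stood at 77.5 and 82.9 CPM (counts scaled to a total of 1e6) in resting DP cells of control 1 and 2, and at 65.1 and 66.3 CPM in cKO 1 and 2. The genotypes overlapped in DP blasts (42.2 and 50.5 against 42.1 and 45.6 CPM) and in DN cells (67.0 and 95.7 against 41.1 and 82.5 CPM). The reads of this 3′ assay fall at the transcript's end, outside the floxed exons, so the Tox4 count does not check the deletion.

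The 60 genes lay on 18 chromosomes and all were protein coding, with at most 11 on 1 chromosome. Promoters in the RefSeq table, which run from 250 bases before to 50 bases after the start, were matched for 50 of the 60 genes and numbered 53 (GRCm38.p6). Cell cycle genes that peak in G2 and M phase are known for 2 promoter elements, the CHR (TTTGAA or TTCGAA) and the CCAAT box, and both were searched on both strands. A CHR motif was present in 44 of the 53 mitosis gene promoters (83.0%) and in 19.2% of all 32851 promoters of the table. Within 50 bases of the start it was present in 71.7% of the mitosis gene promoters and in 5.31% of all promoters. CCAAT stood in 77.4% against 37.4%, at 2 or more places in 52.8% against 11.7%, and together with a CHR motif in 71.7% against 7.52%. A match of letters is a description and does not show that a factor binds there.

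The promoters of 6 genes are printed 5′ to 3′ on the gene's strand because the comparisons below turn on these genes, with CHR and CCAAT matches of either strand in capitals. They are Cdk1 (chr10:69352863-69353162, minus strand), Ccnb2 (chr9:70421505-70421804, minus), Kif22 (chr7:127042371-127042670, minus), Ube2c (chr2:164769679-164769978, plus), Top2a (chr11:99024140-99024439, minus) and Mki67 (chr7:135716330-135716629, minus).
Cdk1: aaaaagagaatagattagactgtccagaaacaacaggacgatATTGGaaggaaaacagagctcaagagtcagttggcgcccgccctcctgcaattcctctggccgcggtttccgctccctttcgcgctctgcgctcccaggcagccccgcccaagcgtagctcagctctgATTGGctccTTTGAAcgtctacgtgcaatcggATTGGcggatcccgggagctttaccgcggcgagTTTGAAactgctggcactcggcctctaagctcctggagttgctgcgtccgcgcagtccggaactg
Ccnb2: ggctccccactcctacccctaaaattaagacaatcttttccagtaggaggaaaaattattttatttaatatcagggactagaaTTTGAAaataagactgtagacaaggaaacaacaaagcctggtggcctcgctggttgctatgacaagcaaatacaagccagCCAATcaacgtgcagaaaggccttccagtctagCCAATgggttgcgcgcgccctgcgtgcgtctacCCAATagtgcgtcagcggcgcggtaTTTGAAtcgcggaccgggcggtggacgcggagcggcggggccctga
Kif22: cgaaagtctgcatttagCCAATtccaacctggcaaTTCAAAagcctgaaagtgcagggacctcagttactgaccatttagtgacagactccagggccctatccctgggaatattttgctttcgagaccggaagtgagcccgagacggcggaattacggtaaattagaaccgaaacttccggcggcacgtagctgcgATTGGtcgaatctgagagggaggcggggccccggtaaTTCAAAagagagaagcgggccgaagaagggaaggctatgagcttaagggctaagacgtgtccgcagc
Ube2c: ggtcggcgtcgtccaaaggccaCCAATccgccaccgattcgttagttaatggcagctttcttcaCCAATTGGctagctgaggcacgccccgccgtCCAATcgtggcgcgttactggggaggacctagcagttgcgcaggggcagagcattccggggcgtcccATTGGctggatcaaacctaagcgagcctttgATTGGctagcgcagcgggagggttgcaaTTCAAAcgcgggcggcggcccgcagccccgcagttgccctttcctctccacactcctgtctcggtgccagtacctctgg
Top2a: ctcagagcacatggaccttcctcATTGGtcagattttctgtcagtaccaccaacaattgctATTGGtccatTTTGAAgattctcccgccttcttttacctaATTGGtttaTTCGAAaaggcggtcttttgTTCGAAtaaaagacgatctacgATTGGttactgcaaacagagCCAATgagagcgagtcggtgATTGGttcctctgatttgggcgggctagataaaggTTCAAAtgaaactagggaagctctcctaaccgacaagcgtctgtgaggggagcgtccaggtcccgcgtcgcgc
Mki67: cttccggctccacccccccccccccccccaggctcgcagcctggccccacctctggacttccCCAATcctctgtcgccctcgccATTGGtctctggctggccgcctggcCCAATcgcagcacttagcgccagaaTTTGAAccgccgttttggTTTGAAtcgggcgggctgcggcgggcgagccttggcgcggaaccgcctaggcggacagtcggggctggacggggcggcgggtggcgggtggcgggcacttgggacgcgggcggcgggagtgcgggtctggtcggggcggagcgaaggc
The last CHR match began 15, 17, 29 and 23 bases before the start in Cdk1, Kif22, Ube2c and Top2a, and 5 bases after it in Ccnb2, whereas the Mki67 matches lay farther upstream, beginning 116 and 98 bases before the start. Cdk1 and Ccnb2 each held 3 CCAAT boxes, Kif22 held 2, and Ube2c and Top2a held 6 each. In the promoter of Nusap1, another gene named below, neither motif was found in this window.

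Cells were clustered without the 60 mitosis genes but with other cell cycle genes, and clusters were scored on marker genes that include none of the 60. The class names are therefore rebuilt from markers and may differ from the names the study used. The DPbla markers include many cell cycle genes, such as Pcna, Mcm3 and Rrm2, so a high mitosis gene level in DPbla was partly set by the naming. DP blast-like cells (DPbla) made up clusters 7 and 10, of 23 clusters in all. Cluster 10 was led by S phase genes such as Hells and Cdc6. A further cluster of 849 cells scored highest on the DPre markers (score 1.39, with DPbla second at 0.91). It was set apart from DPre because its top 10 genes were all mitosis genes, and it is called the mitotic cluster. The 60 genes decided this step, so the higher level of this cluster over DPre was set in advance. DPre, DPsel, CD4SP, CD8SP and MPS stand for resting DP-like, DP-like cells with selection markers, CD4 and CD8 single positive-like cells and mononuclear phagocyte-like cells.

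The summed level of the 60 genes was far higher in the dividing clusters than in the other named classes. A cluster of 1671 shallow blast-like cells lay between them at 10924 to 12454 CPM. This cluster scored highest on the DPbla markers (score 1.99, with 22 detected) and was left unnamed only for its low UMI totals. The summed level was 19729, 19109, 16666 and 16268 CPM in DPbla of control 1, control 2, cKO 1 and cKO 2, and 19459, 17774, 20528 and 19316 CPM in the mitotic cluster. In DPre it was 1998, 1782, 2335 and 2261 CPM, and in DN it was 1845, 2062, 3391 and 2708 CPM. DPsel and CD4SP cells lay between 1371 and 1847 CPM in every library. CD8SP cells held 1727, 3036, 3868 and 3488 CPM, a wide spread between the control libraries. Below the dividing clusters DN, CD8SP, MPS (1804 to 3152 CPM) and B-like cells (1665 to 3119 CPM) overlapped, so their order was not resolved. DPbla cells were 5.95% and 6.46% of the kept cells in control and 8.71% and 8.97% in cKO. They held 52.6% to 59.9% of the mitosis gene UMIs, and the mitotic cluster held 10.8% to 17.6% of them. The shallow blast-like cluster was 3.22% and 3.41% of the kept cells in control and 7.28% and 5.57% in cKO. Over all kept cells the summed level was 5339 and 5288 CPM in control and 6550 and 6366 CPM in cKO.

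**Figure D1:**
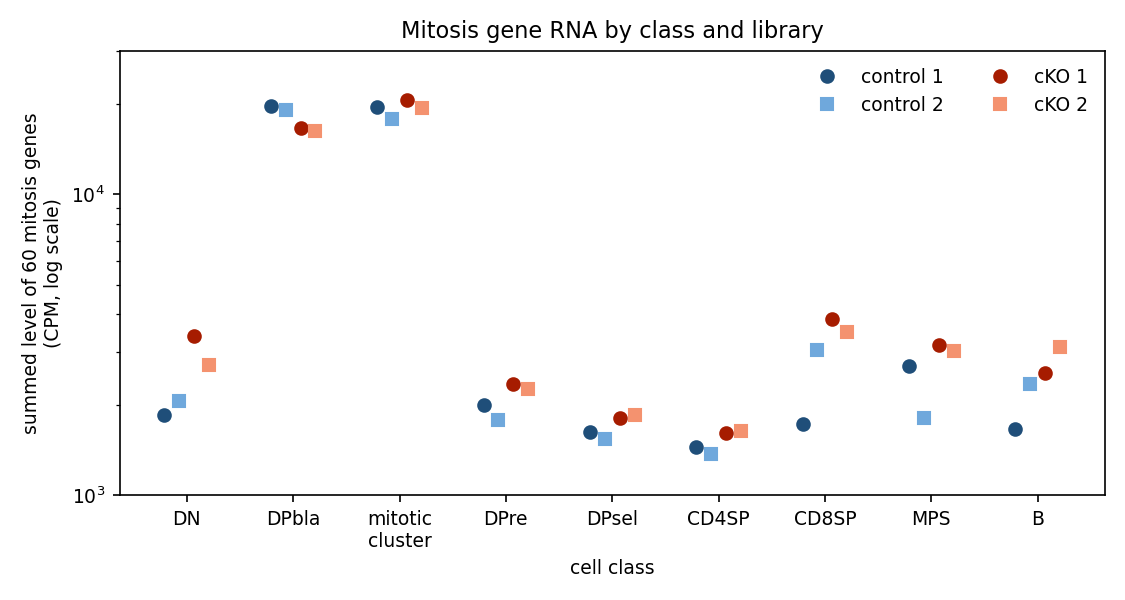
Summed level of the 60 mitosis genes in CPM (log axis) in 9 classes of cells, with 1 point per library for the 2 control and 2 cKO libraries. DPbla and the mitotic cluster lie between 16268 and 20528 CPM, and the other classes drawn between 1371 and 3868 CPM. The shallow blast-like cluster, unnamed clusters and the small γδ T-like and erythroid-like classes are not drawn.

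Gene by gene, 50 of the 60 were more than 10 times higher in DPbla than in DPre on the mean CPM of the 4 libraries, which compares 1 gene with itself and does not depend on its length. Part of this was set by the naming, since the DPbla markers hold cell cycle genes and the mitotic cluster was kept out of DPre. Mki67, which encodes the proliferation marker Ki-67 that coats mitotic chromosomes, had the highest ratio, 32.1 (25.0 to 50.5 over the libraries). The kinetochore gene Nuf2 (28.1) and the cyclin F gene Ccnf (26.9) followed. The lowest ratios belonged to Bub3 (2.18), Smc4 (1.62) and Pttg1 (0.68). Bub3 is a spindle checkpoint protein, Smc4 is a condensin subunit, and Pttg1 is securin, the inhibitor of the protease separase, which parts the sister chromatids. Pttg1 was lower in DPbla than in DPre in all 4 libraries, with ratios of 0.65 to 0.75. These 3 genes therefore did not separate dividing from resting cells as the others did. UMIs of a 3′ assay count molecules and need no correction for length, and on this scale Smc4, Ube2s and Bub3 were the most abundant members in DPre, at 588, 306 and 181 CPM.

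Within the dividing cells the 60 genes did not peak together. Of the 60, 42 had their highest mean level in cluster 7 and 18 in the mitotic cluster, and none in cluster 10. Top2a, topoisomerase II, stood at 2283 CPM in cluster 7, 501 CPM in cluster 10 and 870 CPM in the mitotic cluster. Ube2c, the ubiquitin-conjugating enzyme of the anaphase-promoting complex, stood instead at 1339, 191 and 1760 CPM. These contrasts describe clusters of the same cells and carry no test.

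The genes that gained most in the mitotic cluster came from several roles. Relative to DPbla as a whole the mitotic cluster held 2.87 times the level of the centromeric histone Cenpa, 2.80 times that of Cdc20, 2.39 times that of cyclin B1 (Ccnb1) and 2.23 times that of cyclin B2 (Ccnb2). Securin was also higher there, at 2.32 times its DPbla level. At the other end lay the kinetochore genes Spc25 (0.33) and Spc24 (0.38), the condensin subunit Ncaph (0.35) and Ccnf (0.43). By role, all 8 chromosome structure genes and all 5 spindle checkpoint genes peaked in cluster 7, whereas 5 of 9 CDK1 switch genes, 5 of 10 spindle genes, 3 of 5 genes of the anaphase-promoting complex and securin and 3 of 9 kinetochore genes peaked in the mitotic cluster.

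**Figure D2:**
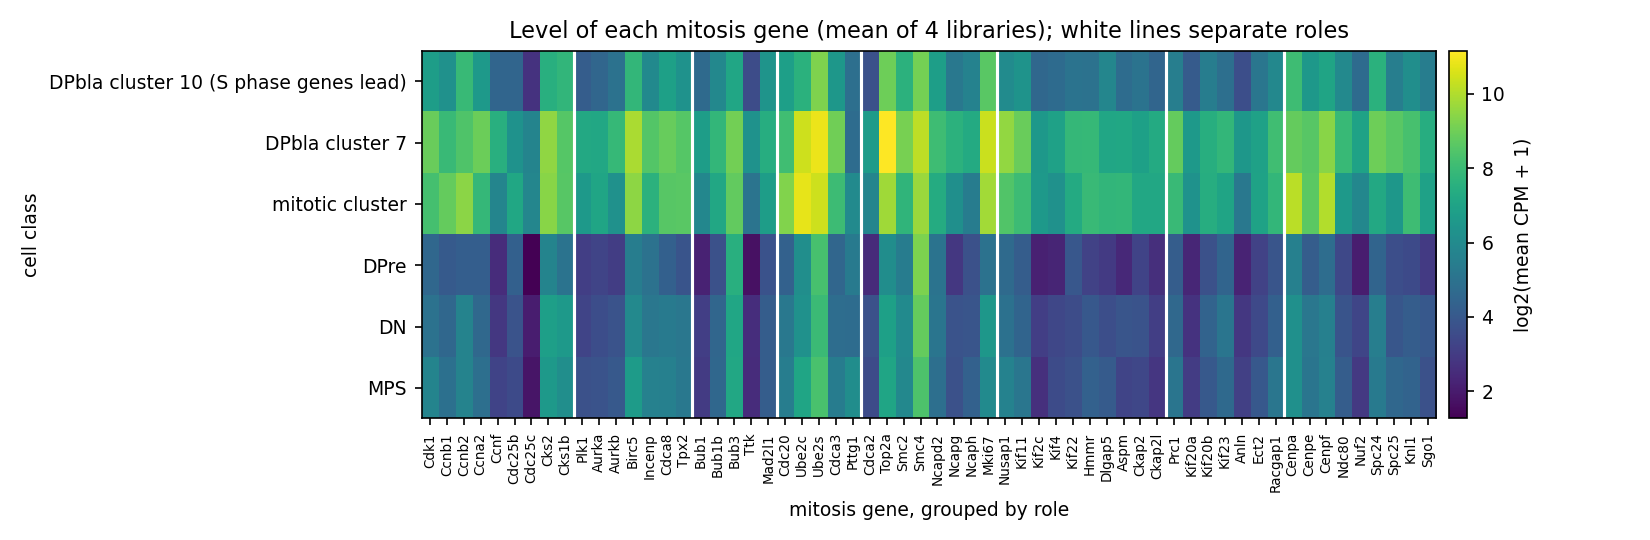
Mean level of each of the 60 mitosis genes over the 4 libraries, as log2(CPM + 1), in clusters of dividing cells and in other classes; genes are grouped by role and white lines separate the roles. Most columns are bright in cluster 7 and the mitotic cluster and dark in the resting classes, while Smc4, Bub3 and Ube2s stay bright in the resting classes too.

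The level per cell was compared after thinning every cell to 1000 UMIs, which left out shallower cells. In DPbla the median cell then held 16, 16, 14 and 13 mitosis gene UMIs in control 1, control 2, cKO 1 and cKO 2. Cells with at least 5 such UMIs made up 87.5%, 84.2%, 81.9% and 80.7% of DPbla, so both cKO libraries lay below both control libraries. In DPre the median cell held 2 UMIs in every library, and cells with at least 5 were 7.32% and 4.75% of the control cells and 9.85% and 9.05% of the cKO cells. In DN the share was 13.9%, 8.77%, 14.7% and 10.8%, which overlapped between genotypes. Those few DN cells held 37.3% to 57.2% of the DN mitosis gene UMIs. MPS cells, in which Lck-Cre is not active, had shares of 14.9% and 8.21% in control and 19.9% and 13.2% in cKO, with median depths before thinning of 1561, 2529, 1390 and 2305 UMIs, against 3109, 2615, 2977 and 2243 UMIs in DPre. In all 4 libraries the DPre share lay below the MPS share, so no difference in dividing cells is read from it. Without thinning nearly all DPbla cells (99.6% to 100% per library) held at least 5 UMIs, so that share is saturated and no direction is read from it.

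**Figure D3:**
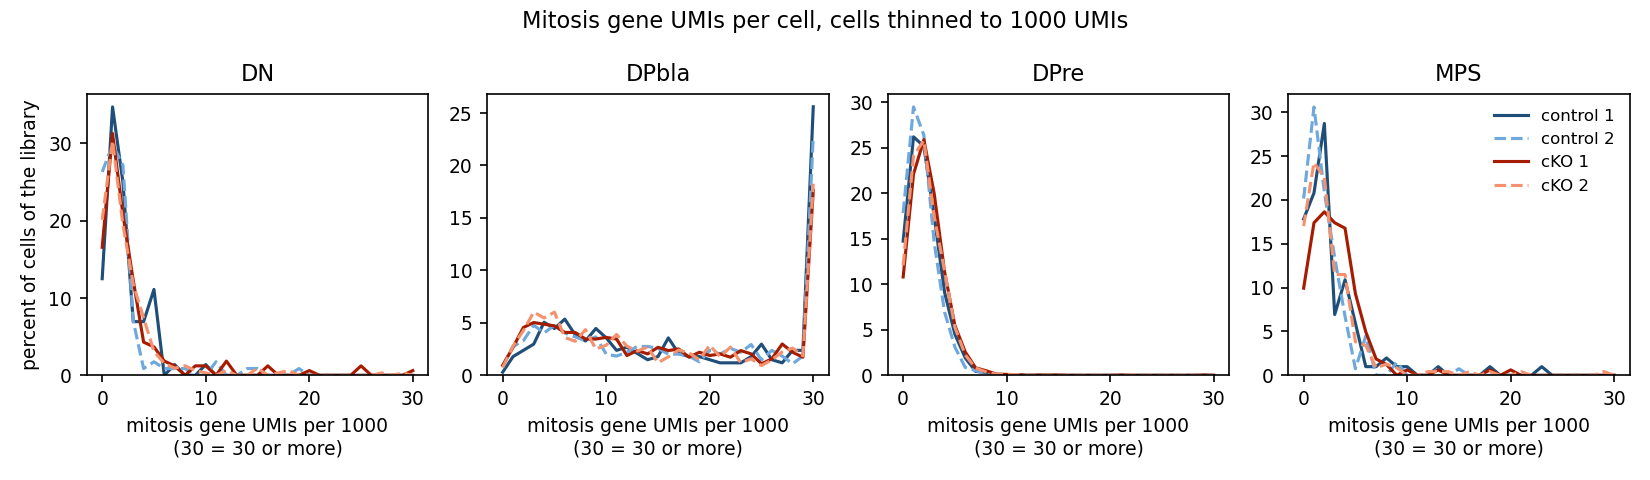
Distribution of mitosis gene UMIs per cell after thinning to 1000 UMIs (horizontal axis, with 30 standing for 30 or more), as the percent of each library's cells (vertical axis), 1 line per library. DPbla cells spread widely around medians of 13 to 16 UMIs, and DPre cells pile up around a median of 2.

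In DP blasts, the question was whether loss of Tox4 goes with a lower level of mitosis genes. Of the 60 genes 56 had a lower fitted level in cKO, by a median of -0.22 on the log2 scale (all 10470 genes tested had a median of -0.0030), but the differences were small and a single gene passed the test without a block for the replicate number. In total 50 genes were lower in both cKO libraries than in both control libraries, against 27.8% of all genes tested, and none was higher in both (17.9% of all genes were). Called means an adjusted p below 0.05 in edgeR's quasi-likelihood test over all genes, and 1 of 60 was called lower (0.946% of all genes were) and 0 higher (1.72% of all genes were). At an unadjusted p under 0.05 there were 30 lower and 0 higher (6.7% and 8.24% of all genes were). With the replicate number as a block 26 were called lower, against 4.18% of all genes. Summed over the 60 genes the level in cKO was 16666 against 19729 CPM for replicate 1 and 16268 against 19109 CPM for replicate 2.

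The called gene was Kif22, which encodes a kinesin that binds chromosomes and pushes them along the spindle. Its level in DPbla was 198, 186, 148 and 119 CPM in control 1, control 2, cKO 1 and cKO 2, so the genotypes did not overlap. The fold change was -0.48 on the log2 scale (SE 0.12, adjusted p = 0.026, edgeR). With 1 library left out, the remaining library of its group is assumed to vary like the other group, and the call was lost without control 1, without control 2 or without cKO 2, with log2 fold changes of -0.45, -0.49 and -0.33, and also when the 2 DPbla clusters were given equal shares.

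The CDK1 switch had the lowest median fold change of its members among the roles, although by summed level the anaphase-promoting complex and securin lay lower (log2 -0.39 against -0.34). All 9 of its genes were lower in both cKO libraries, with a median of -0.38, and none was called. Cdk1 stood at 424, 383, 327 and 273 CPM in control 1, control 2, cKO 1 and cKO 2 (log2 -0.38, SE 0.11, adjusted p = 0.069, edgeR). Ccnb2 stood at 372, 332, 280 and 244 CPM (-0.38, adjusted p = 0.063, edgeR). For both genes the 2 genotypes did not overlap, and cKO 2 was the lowest library. Ccnb1 (-0.28) and Ccna2, the gene of cyclin A2 (-0.33), followed the same order of genotypes. Ccnf (-0.40) and Cdc25c (-0.45), a phosphatase that activates Cdk1, had the largest differences after Kif22.

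Among the genes of the anaphase-promoting complex, Ube2c stood at 1110, 1072, 851 and 762 CPM (-0.39, SE 0.11, adjusted p = 0.056, edgeR) with no overlap of the genotypes. Cdc20, the activator of that complex, stood at 281, 224, 215 and 175 CPM (-0.32, adjusted p = 0.18, edgeR). Securin was at 27.1, 27.6, 27.9 and 25.5 CPM and did not separate the genotypes.

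The mitotic kinases lay lower in cKO by less. Plk1 had a log2 fold change of -0.27, Aurka of -0.29, and Aurkb, the kinase of the chromosomal passenger complex, of -0.30. Birc5 (survivin), which brings Aurkb to the centromere, was at 802, 747, 668 and 596 CPM (-0.25, adjusted p = 0.27, edgeR). Bub1, a spindle checkpoint kinase, had -0.21. None of these 5 genes was called, and in all 5 the genotypes did not overlap.

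Chromosome structure genes showed the smallest differences in DPbla, with a median of -0.13. Top2a was at 1745, 1752, 1543 and 1631 CPM (-0.09, adjusted p = 0.77, edgeR) and the condensin gene Smc2 had -0.09. Mki67 was at 1027, 938, 926 and 1112 CPM (+0.10, adjusted p = 0.75, edgeR), so the library with the highest Mki67 was a cKO library. Of the kinetochore genes Cenpa was lower without overlap (-0.31), while Cenpf (-0.04) overlapped and its sign turned in 4 of its alternatives. The spindle motor Kif11 (-0.17) and the cytokinesis kinesin Kif23 (-0.19) lay near the median of the 60.

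**Figure D4:**
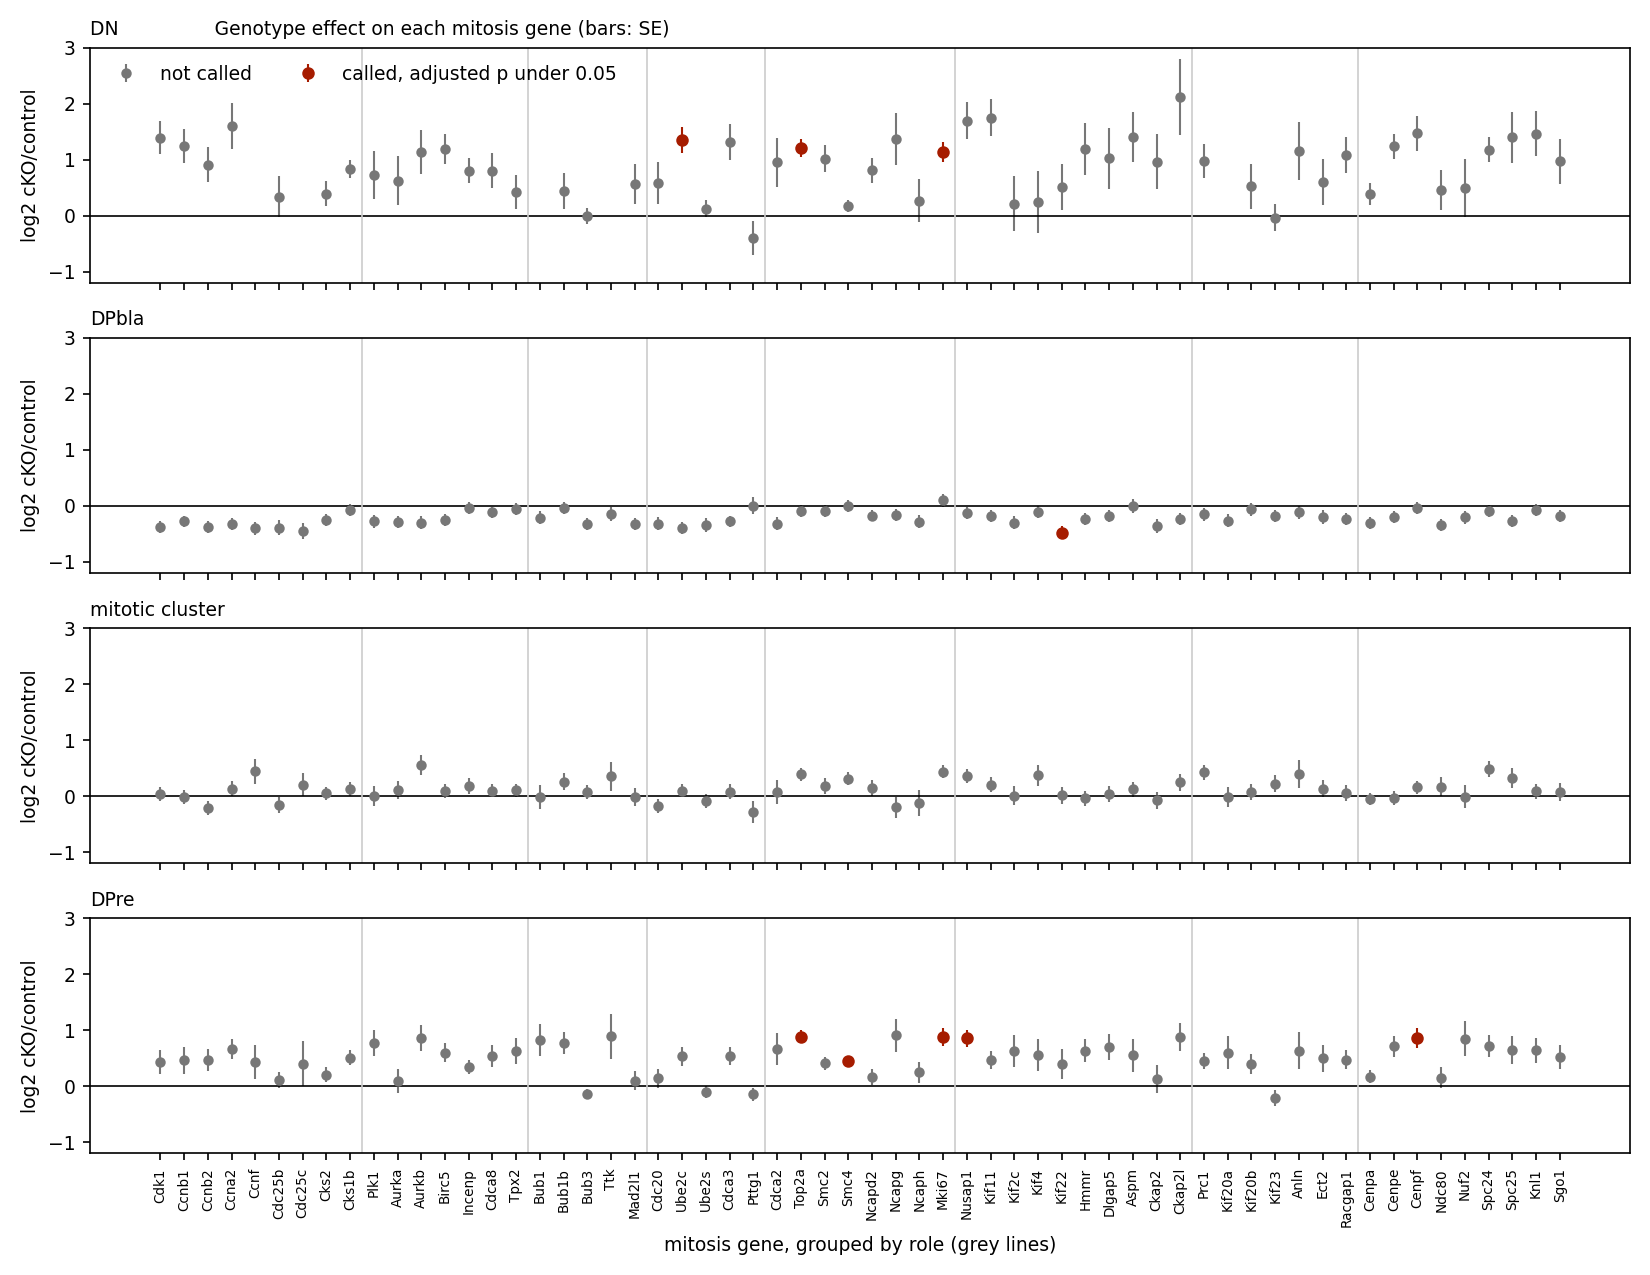
Log2 fold change of cKO over control for each mitosis gene (points, with SE as bars) in DN, DPbla, the mitotic cluster and DPre; called genes are red. In DPbla nearly all points lie just below 0 with only Kif22 called, and in DN and DPre most lie above 0, with 3 and 5 called.

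The make-up of the DPbla class moved with genotype. Cluster 10, which holds less of the mitosis genes than cluster 7, was 33.9% and 34.9% of DPbla in the control libraries and 38.2% and 40.7% in the cKO libraries. The exact permutation test of 2 against 2 gave p = 0.333, the smallest it can give. Within cluster 7 the median of the 60 genes was -0.13 with 38 lower (23.6% of all genes) and 0 higher (17.8%) in both cKO libraries, and within cluster 10 it was 0.09 with 9 lower (28.1% of all genes) and 12 higher (15.9%) in both cKO libraries. No mitosis gene was called in either cluster by edgeR (0.938% of all genes were called in cluster 7 and 2.37% in cluster 10), and 14 and 4 genes were lower at an unadjusted p under 0.05 (5.38% and 5.96% of all genes were). With equal shares of the clusters 0 genes were called in DPbla. The summed thymic epithelial marker level in DPbla also differed (555 to 853 CPM in control, 384 to 535 CPM in cKO, over 9 markers, none without UMIs), as did the γδ T cell sum (209 to 212 against 176 to 187 CPM, 9 markers, Tcrg-V6 and Il23r without UMIs) and the erythroid sum (6.95 to 11.4 against 13.5 to 13.9 CPM, Alas2 without UMIs). The markers of DPbla itself summed to 38388 and 33949 CPM in control and to 32557 and 27826 CPM in cKO, a log2 ratio of -0.26 beside -0.24 for the mitosis genes. The CD8SP marker sum was 2923 and 2548 CPM against 2013 and 1732 CPM, and the DPre, DPsel and CD4SP marker sums were also lower in both cKO libraries. The median mitochondrial share was 5.10% and 5.65% in control and 4.64% and 5.02% in cKO. The part of these values in the result was not tested.

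The mitotic cluster did not show the DPbla pattern with the filters used, but it did with a mitochondrial limit of 5%, when its summed level was 26459 and 26136 CPM in control and 22887 and 23069 CPM in cKO and the median of the genes was -0.15. With the limit of 10%, Cdk1 stood there at 292, 302, 313 and 295 CPM and Ccnb1 at 531, 386, 487 and 420 CPM, so the genotypes overlapped for both. The median of the 60 genes was 0.09, 24 were higher in both cKO libraries (18.8% of all genes), 4 were lower (19.1%), and no gene was called by edgeR (0.193% of all genes were called higher and 0.0845% lower). At an unadjusted p under 0.05 there were 8 higher and 0 lower (4.79% and 4.01% of all genes were), and with the replicate block 6 were called higher (1.24% of all genes were). Mki67 had the smallest adjusted p (787, 713, 973 and 1046 CPM, log2 +0.43, SE 0.12, adjusted p = 0.083, edgeR). The cluster was 3.03% and 2.19% of the kept cells in control and 2.59% and 2.53% in cKO, so the genotypes overlapped. It held 33.7% and 25.3% of the dividing cells (DPbla and the mitotic cluster together) in control and 22.9% and 22.0% in cKO (exact permutation p = 0.333). The B cell marker sum (484 to 532 against 550 to 561 CPM), the γδ T cell sum and the erythroid sum also separated the genotypes here. So did the CD8SP markers (5001 and 4526 CPM in control, 3879 and 3455 CPM in cKO), the DN markers (214 and 179 against 236 and 238 CPM) and the median mitochondrial share (5.47% and 6.12% against 4.73% and 5.30%). Their part was not tested.

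In DN thymocytes most mitosis genes had fitted levels above control in cKO, and 3 passed the test. The 60 genes had few UMIs in this class, which held 73, 115, 166 and 328 cells in control 1, control 2, cKO 1 and cKO 2, and 55 passed the filter on low counts (not Ccnf, Bub1, Ttk, Cdc25c and Kif20a). Of those 55, 52 had a fitted level above control, with a median of 0.96 on the log2 scale against -0.0084 over all 8912 genes tested. Of the 55, 42 were higher in both cKO libraries, against 17.6% of all genes, and none was lower in both (22.1% of all genes were). By edgeR 3 were called higher (0.157% of all genes were) and 0 lower (0% of all genes were), while 31 were higher at an unadjusted p under 0.05 (5.33% of all genes were). With the replicate block 22 were called higher, against 1.65% of all genes.

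The 3 called genes were Top2a, Mki67 and Ube2c. Top2a stood at 60.9 and 79.6 CPM in control and at 157 and 168 CPM in cKO (log2 1.20, SE 0.16, adjusted p = 0.013, edgeR), from 40, 89, 244 and 453 UMIs. Mki67 stood at 53.3, 58.1, 133 and 112 CPM (1.14, SE 0.17, adjusted p = 0.019, edgeR), and Ube2c at 47.2, 39.3, 129 and 86.6 CPM (1.34, SE 0.23, adjusted p = 0.035, edgeR). In each of the 3 both cKO libraries lay above both control libraries. None of these calls held without cKO 1 or without cKO 2, when 0 genes were called, whereas 14 were called without control 1 and 17 without control 2.

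Other DN members had differences as large without passing the test. Cdk1 stood at 12.2, 20.6, 53.3 and 38.9 CPM (1.40, adjusted p = 0.082, edgeR) and Kif11 at 13.7, 7.16, 32.1 and 31.8 CPM (1.75, adjusted p = 0.054, edgeR). Nusap1, a microtubule-binding spindle protein, had 1.69 (adjusted p = 0.058, edgeR). The largest value belonged to Ckap2l, a spindle protein with 2.13, but it rested on 0 and 5 UMIs in control and 26 and 25 UMIs in cKO. Ccna2 (1.60), Cenpf (1.48), Ccnb1 (1.24), Birc5 (1.20), Aurkb (1.14), Smc2 (1.02) and Ccnb2 (0.91) were each higher in both cKO libraries. Plk1 (0.73) and Aurka (0.63) rested on low levels, 4.57 CPM for Aurka in control 1 for example. Cenpa (0.39) separated the genotypes, but Cdc20 (0.58) and Kif23 (-0.03) did not. Bub3, Ube2s and Smc4, the abundant members, lay between -0.0049 and 0.18.

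Red cell transcripts moved with this comparison. The summed erythroid marker level in DN was 3.04 to 13.4 CPM in control and 18.9 to 465 CPM in cKO (6 markers), with the highest value in cKO 1. The B cell, phagocyte, γδ T cell and neutrophil marker sums overlapped between the genotypes in DN, as did the thymic epithelial sum. The summed DPbla markers were higher in DN cells of cKO (4798 and 4976 CPM in control against 7615 and 6915 CPM) and the DN markers lower (2578 and 2332 CPM in control against 2009 and 2071 CPM), and the median mitochondrial share was 7.14% and 7.16% in control against 5.89% and 6.03% in cKO. The sums of DPre, CD4SP and CD8SP markers were also lower in both cKO libraries. The part of these signals in the result was not tested. DN cells were 1.29% and 1.36% of the kept cells in control and 2.27% and 2.73% in cKO.

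In resting DP cells most mitosis genes also had fitted levels above control in cKO, at levels far below those of blasts, and 5 passed the test. Of the 60 genes 56 had a fitted level above control, with a median of 0.53 against -0.00084 over all 11714 genes tested. In both cKO libraries 44 were higher than in both control libraries (18.5% of all genes were), and 3, Kif23, Pttg1 and Bub3, were lower (28.6% of all genes were). By edgeR 5 were called higher (0.905% of all genes were) and 0 lower (0.606% of all genes were), and 36 were higher at an unadjusted p under 0.05 (8.17% of all genes were). With the replicate block 30 were called higher, against 5.23% of all genes. Since the counts are sums over a class, more dividing cells within the class and more RNA per cell cannot be told apart.

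The called genes were Top2a, Mki67, Nusap1, Cenpf and Smc4. Top2a stood at 53.1, 43.9, 87.3 and 85.9 CPM (0.88, SE 0.12, adjusted p = 0.0035, edgeR), and Mki67 at 26.7, 18.6, 37.1 and 42.5 CPM (0.88, SE 0.16, adjusted p = 0.020, edgeR). In both, the lowest cKO library lay above the highest control library. Nusap1 stood at 20.5, 15.3, 33.4 and 29.3 CPM (0.86, adjusted p = 0.020, edgeR), and Cenpf, which encodes a kinetochore protein, at 24.3, 14.9, 35.0 and 33.7 CPM (0.87, adjusted p = 0.037, edgeR). Smc4 stood at 481, 530, 643 and 699 CPM (0.45, SE 0.09, adjusted p = 0.038, edgeR), the largest gain in CPM of the 60. The Smc4 call was lost without control 1 and the Cenpf call without control 2, and the number of genes called higher was 25 without control 1 and 10 without cKO 2.

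The CDK1 switch was less clear in DPre. Cdk1 stood at 25.3, 14.1, 27.5 and 23.4 CPM, so cKO 2 lay below control 1 (0.43, adjusted p = 0.37, edgeR), and Ccnb1 overlapped too (0.47). Ccnb2 (0.47) and Ccna2 (0.67) were higher without overlap. The kinases Aurkb (0.85), Plk1 (0.77) and Bub1 (0.82) and the passenger protein Birc5 (0.60) were higher in both cKO libraries, and Aurka (0.10) was not. Ube2c stood at 71.8, 44.6, 87.1 and 75.8 CPM (0.53, adjusted p = 0.16, edgeR), and Cdc20 overlapped (0.15).

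Among the remaining DPre members the largest fold changes with no overlap belonged to the condensin subunit Ncapg (0.91) and the checkpoint kinase Ttk (0.89), both below 9 CPM. Smc2 (0.41), Kif11 (0.46) and Cenpa (0.17) were higher in both cKO libraries. Kif23 was at 24.0, 22.0, 20.4 and 18.4 CPM (-0.21), Pttg1 at 41.4, 42.6, 37.2 and 36.8 CPM (-0.14) and Bub3 at 189, 196, 172 and 168 CPM (-0.14). All 3 were lower in both cKO libraries and none was called.

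Marker sums of other cells moved with genotype in DPre as well. The B cell sum was 429 to 479 CPM in control and 483 to 555 CPM in cKO, the phagocyte sum 254 to 264 CPM against 279 to 291 CPM, and the erythroid sum 16.8 to 20.6 CPM against 28.0 to 42.2 CPM. No marker of these 3 lists was without UMIs in DPre. The DN marker sum was 180 and 147 CPM in control and 235 and 208 CPM in cKO. The CD8SP sum was 5180 and 4387 CPM against 3930 and 3585 CPM, and the sum of the DPre markers themselves was 8799 and 7981 CPM against 7848 and 7659 CPM. The part of these sums in the result was not tested.

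**Figure D5:**
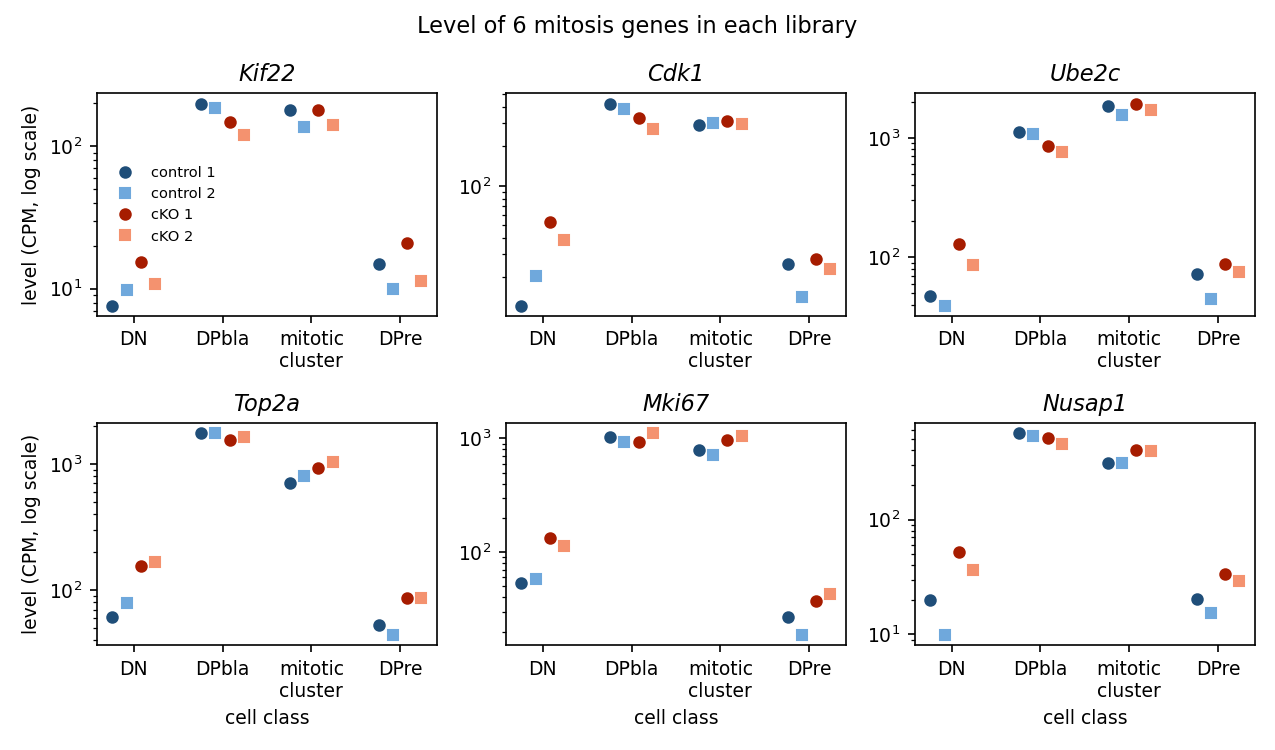
Level in CPM (log axis) of 6 mitosis genes in each library for DN, DPbla, the mitotic cluster and DPre. For Cdk1 the cKO points lie below the control points in DPbla (273 and 327 against 383 and 424 CPM) and above them in DN (38.9 and 53.3 against 12.2 and 20.6 CPM).

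Whether the genotype effect differed between classes was tested directly, with the library as a block because the classes came from the same libraries. Ccnf, Bub1, Ttk, Cdc25c and Kif20a failed the low-count filter in DN and entered this test through DPbla, so they are left out of the counts here, and none of them was called. The effect was lower in DPbla than in DN for 54 of the other 55 genes, with a median difference of -1.14 on the log2 scale. Of these, 29 were called by edgeR (1.13% of all genes were called below 0). Kif11 (difference -1.94), Nusap1 (-1.86), Cdk1 (-1.80) and Ube2c (-1.75) had large differences, followed by Cenpe (-1.46), a kinetochore motor, Birc5 (-1.44), Top2a (-1.32) and Spc24 (-1.30). The count fell to 7 without control 1, 12 without control 2 and 19 without cKO 1.

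Between DPbla and DPre the effect was lower in DPbla for 58 of 60 genes, with a median difference of -0.76, and 27 were called by edgeR (0.475% of all genes were called below 0). The 8 with the smallest adjusted p were Top2a (-0.98), Nusap1 (-0.998), Ccna2 (-1.0), Aurkb (-1.17), Birc5 (-0.85), Ube2c (-0.95), Plk1 (-1.06) and Mki67 (-0.78). The count was 45 without control 1, 9 without control 2 and 5 without cKO 2. Mki67 thus differed between the classes although it was not lower in DPbla of cKO.

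The effect in the mitotic cluster was above that in DPbla for 58 of 60 genes (median difference 0.30). Here 7 were called by edgeR (0.314% of all genes were called): Ube2c, Top2a, Prc1, Aurkb, Nusap1, Spc24 and Bub3. Against DPre the mitotic cluster had 3 genes called below 0, Cenpf, Ccnb2 and Cenpe (0.0447% of all genes).

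Other genes of the cell cycle were read beside the 60. A list of 76 further mitotic genes had medians of -0.16 in DPbla, 0.31 in DN (53 tested) and 0.28 in DPre. Its summed level in DPre ran the other way, with 2396 and 2405 CPM in control and 2235 and 2301 CPM in cKO. In DPbla 3 of them were called lower by edgeR and 0 higher (0.946% and 1.72% of all genes were). These were Cdkn2d (368, 319, 236 and 197 CPM, log2 -0.61, adjusted p = 0.0036, edgeR), Depdc1a (-0.56) and Pimreg (-0.47). Cdkn2d encodes a CDK4 and CDK6 inhibitor, so its place on this list does not rest on a mitotic role. In DN 0 of 53 were called (15 higher and 1 lower at an unadjusted p under 0.05, against 5.33% and 3.85% of all genes), and in DPre 1 of 76 was called higher, the centromere gene Cenpm (1.05), and 0 lower (0.905% and 0.606% of all genes were).

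S phase genes, a list of 36, had a DPbla median of 0.0022, with 18 above 0 and 18 below, and 1 was called higher, the Myc target gene Cdca7 (0.40), with 0 lower (1.72% and 0.946% of all genes were). In DN, by contrast, 4 of 34 were called higher (0.157% of all genes were) and 0 lower: the helicase subunit gene Mcm3 (1.26), the sliding clamp gene Pcna (0.98), Pclaf (1.27) and Dut (0.79), with a list median of 0.79. All 4 are also DPbla markers, as is Tyms, so they are not a separate signal from the DPbla marker sum given for DN above. In DPre 3 of 36 were called higher (0.905% of all genes were), Cdc6 (1.33), Pclaf (0.86) and Pola1 (1.14), and in the mitotic cluster 2 of 29 (0.193% of all genes were), Tyms (1.05) and Cdca7 (0.58), with 0 lower in both.

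In the remaining classes most mitosis genes also had fitted values above control, with few calls. In DPsel 2 of 58 were called higher by edgeR (0.12% of all genes were), Top2a (36.1, 33.4, 65.7 and 62.2 CPM, log2 0.89) and Nusap1 (11.4, 9.64, 19.5 and 22.7 CPM, 1.03), and the median was 0.41. In CD8SP the median was 0.67 with 57 of 59 above 0 and in CD4SP it was 0.25. No gene was called in either by edgeR (0.011% and 0.0652% of all genes were called higher), with 35 and 5 higher at an unadjusted p under 0.05 (3.64% and 3.72% of all genes were). The phagocyte marker sum was 173 and 186 CPM in control and 251 and 350 CPM in cKO in CD8SP, and 152 and 129 against 184 and 184 CPM in CD4SP. The erythroid sum was higher in both cKO libraries in DPsel, CD4SP and CD8SP (log2 ratios of 1.35, 1.06 and 1.27). In DPsel the phagocyte, γδ T cell and DN sums were also higher in both. The DPsel markers (4313 and 4033 against 3692 and 3574 CPM) and the CD8SP markers were lower there. In CD4SP the γδ T cell and DN sums were higher and the DPsel sum lower. The median mitochondrial share in CD8SP was 5.51% and 5.97% in control and 4.87% and 5.35% in cKO. The part of these values was not tested.

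MPS and B-like cells, which Lck-Cre does not target, showed the same sign. In MPS 30 of 35 tested genes were above control with a median of 0.51, and in B-like cells 11 of 14 with a median of 0.54. Neither had a call by edgeR (0% of 6594 genes were called in MPS, and 0.0363% of genes higher in B-like cells), with 5 and 6 mitosis genes higher at an unadjusted p under 0.05 (1.21% and 3.01% of all genes were). Top2a in MPS stood at 112, 57.2, 192 and 184 CPM, so the genotypes did not overlap. The erythroid sum was higher in both cKO libraries in MPS (17.7 and 14.8 against 49.5 and 47.3 CPM) and in B-like cells (4.90 and 0 against 6.71 and 20.7 CPM). In MPS the γδ T cell sum was also higher and the CD8SP sum lower. In B-like cells the DPbla and CD4SP sums were higher, and the DN, DPre and phagocyte sums lower. The part of these sums, and whether RNA released from other cells contributed, was not tested.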

How the data were processed

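Thymocytes of 2 control and 2 cKO mouse libraries were profiled with the Chromium 3′ v3 chemistry. The authors deposited UMI counts per gene and cell, made with Cell Ranger 6.1.1 per the file headers, and the submitters' processing notes name mm10; the annotation used for counting is not given in the sources used here. Promoter sequences are from the RefSeq table (GRCm38.p6) and gene positions from GENCODE.

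Cells with under 200 genes, with over 10% mitochondrial UMIs, with a UMI total in the lowest or highest 2.5% of the library, or among the 5% with the highest Scrublet doublet score of the library (run in scanpy with an expected rate of 8%) were left out, so 5648 to 12027 cells and 24631981 to 41978515 UMIs per library remained. The highest 2.5% of UMI totals held 27.8% to 37.7% of a library's mitosis gene UMIs. Of 3000 variable genes 30 were mitosis genes and were left out, and the other 2970 were used for Leiden clustering (scanpy 1.11.5, leidenalg 0.10.2, resolution 1). Clusters were named from fixed marker lists, with thresholds set after the clusters were seen. A cluster led by mitosis genes was left unnamed unless DPbla scored best, which set the mitotic cluster apart from DPre. The cluster of shallow blast-like cells (10924 to 12454 CPM summed) scored best on DPbla and was left unnamed for its low UMI totals. Classes under 30 cells in a library were not tested.

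Raw counts were summed per class and library and tested over all genes with edgeR 4.0.16 (TMM, low-count filter, quasi-likelihood F test, R 4.3.3), with Benjamini-Hochberg adjusted p below 0.05 as the call. Alternatives were DESeq2 1.42.0, its size factors in edgeR, no filter, a replicate block, each library left out (the spread then comes from the group that keeps both libraries), other cell filters and other clusterings. On simulated counts with a log2 change of 1 the test recovered 55% of changed genes in DN, 78% in DPbla and 86% in DPre, and 11%, 14% and 31% at 0.5. CPM of member sums carry counting error, and with 2 libraries per group no exact permutation test can go below p = 0.333.

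The mitosis genes, the other lists and the tests were chosen with earlier results of these data known. Named are called genes, 18 fixed members, the 3 members per class and direction with the largest fold change without overlap, the extremes of the DPbla to DPre ratio, at most 8 members per tested difference between classes and at most 3 called genes of the list of other mitotic genes per class and direction; other genes are named as examples. The counts of some single markers of other cell types are not reported here.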

Additional observations from a re-analysis of the deposited data

Results flagged for a closer look

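The genotype effect on 8 mitosis genes differed between DPbla and DN by the direct test (edgeR, library as a block): Ube2c by -1.75 on the log2 scale, Top2a by -1.32, Cdk1 by -1.80, Birc5 by -1.44, Nusap1 by -1.86, Cenpe by -1.46, Spc24 by -1.30 and Kif11 by -1.94. These 8 had the smallest adjusted p of the 29 called, and each was below control in DPbla and above it in DN. Between DPbla and DPre the differences were -0.98 for Top2a, -0.998 for Nusap1, -1.0 for Ccna2, -1.17 for Aurkb, -0.85 for Birc5, -0.95 for Ube2c, -1.06 for Plk1 and -0.78 for Mki67. Mki67 is the member of these for which the fitted value in DPbla was above control.

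Cells that the filters left out also held mitosis gene UMIs, and in 3 of 5 groups of them the summed level was higher in both cKO libraries than in both control libraries. In cells with over 10% mitochondrial UMIs the sum was 4134 and 3464 CPM in control and 5113 and 5112 CPM in cKO (mean 5112). In cells of the lowest 2.5% of UMI totals it was 5499 and 4242 CPM against 6500 and 5735 CPM (mean 6118). In cells marked as doublets it was 5183 and 3982 CPM against 5758 and 6525 CPM (mean 6142). These cells were not split by class, so a different mix of cells and a different level per cell cannot be told apart. In cells of the highest 2.5% of UMI totals the order was the other way, with 11867 to 12240 CPM in control and 11118 to 11762 CPM in cKO. In cells with under 200 genes the libraries of the genotypes overlapped.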

How the results depend on the processing

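The medians of the mitosis genes in DN, DPbla and DPre kept their sign in all alternatives run, and the counts of calls moved. In DN the number called higher (3) was 8 with DESeq2 size factors, 20 without the low-count filter, 1 with a mitochondrial limit of 20%, 14 without removal of doublets, 1 with the mitosis genes in the clustering, 12 with no cell cycle genes in it, and 0 to 17 with 1 library left out. In DPbla the number called lower (1) was 2 with DESeq2, 5 without the filter, 0 and 2 with mitochondrial limits of 5% and 20%, 0 without limits on UMI totals, 4 with the mitosis genes and 4 with no cell cycle genes in the clustering, 0 with equal cluster shares, 0 with the mitotic cluster added, and 0 to 1 with 1 library left out. In DPre the number called higher (5) was 21 without the filter, 3 at 20%, and 4 to 25 with 1 library left out, when the median ranged from 0.31 to 0.78. The tested differences ranged from 7 to 32 (DPbla and DN) and from 5 to 45 (DPbla and DPre). The summed log2 ratio in DPbla (-0.24) was -0.28 at 5%, -0.16 without UMI limits and -0.18 with the mitotic cluster; in the mitotic cluster it turned to -0.19 and the median to -0.15 at 5%. The difference in the share of cells with 5 or more UMIs was -0.85 percentage points in DN and 0.24 in DPbla without thinning, where nearly all cells passed, 8.44, -2.26 and 9.50 in DN, DPbla and DPre at 3 or more, and 2.19, -3.88 and 0.20 at 10 or more. Directions turned for 8 named members. Leaving out 1 library gave -0.24 to 0.35 for Kif23 and -0.048 to 1.17 for Cdc20 in DN, -0.13 to 0.055 for Cenpf, -0.20 to 0.052 for Smc2 and -0.037 to 0.23 for Mki67 in DPbla, and -0.091 to 0.39 for Cdc20 and -0.17 to 0.37 for Aurka in DPre. Kif23 in DN was 0.079 at 20%, 0.40 without UMI limits, 0.12 with doublets, 0.048 with the mitosis genes in the clustering and 0.074 with no cell cycle genes in it. Cenpf in DPbla was 0.063 without UMI limits and 0.053 with equal shares, and Top2a there was 0.0082 with the mitotic cluster. In DPre Kif23 was 0.012 at 20% and Bub3 0.031 at 5%. The cause was not tested.

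With the replicate number as a block 22 genes were called higher in DN, 26 lower in DPbla and 30 higher in DPre (1.65%, 4.18% and 5.23% of all genes were). Deviations of same-numbered libraries correlated at 0.09, 0.23 and 0.23 over all genes and at -0.21, 0.55 and 0.07 over the mitosis genes. The paper speaks of pairs of mice, but no source says that the number marks a pair, and 2 pairs cannot show it. The DN test at 5% was not run, because libraries held under 30 cells. The alternatives that add the mitotic or the shallow cluster to DPbla were chosen after seeing the data.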
